A study of Homo sapiens with 8 samples.

Results

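Tropomyosins, calponins and the genes of the smooth muscle contractile apparatus were followed across the gefitinib-sensitive lung cancer line PC9 and its gefitinib-selected derivative PC9R. The group is a list of 10 genes out of 23371 in the count table: the tropomyosins TPM1, TPM2, TPM3 and TPM4, the calponins CNN1, CNN2 and CNN3, the calponin relative TAGLN (transgelin), the smooth muscle actin ACTA2 and the myosin regulatory light chain MYL9. The genes were chosen by name when RNA values of this same comparison, the lower counts of TPM2 in PC9R among them, were already known. All RNA differences between the lines below are therefore a description of these libraries, adjusted p-values included, and none is offered as support for the choice of genes. PC9 is a human lung adenocarcinoma line with an activating EGFR mutation, and gefitinib inhibits the EGFR kinase. PC9R was obtained from PC9 by 1 to 2 weeks of gefitinib, and all cells were at passages 8 to 12. Each line had 2 RNA libraries, 1 library of DNase hypersensitive sites (DHS, which mark open chromatin) and 1 of the histone mark H3K4me2, found at promoters and enhancers. Only the PC9R libraries came from cells with a gefitinib exposure, so a drug effect and a line effect cannot be told apart.

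Tropomyosins are coiled-coil proteins that lie along actin filaments and set which myosins and other actin-binding proteins reach them. Calponins and transgelin bind actin as well, and phosphorylation of the myosin regulatory light chain starts contraction in smooth muscle and in stress fibres of other cells. Many of these genes are targets of serum response factor (SRF) with its actin-sensing cofactors, the myocardin-related transcription factors, through a DNA element called the CArG box.

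Total counts were 32515891 and 32502455 in the first RNA libraries of PC9 and PC9R, and 16013058 and 16715426 in the second. Across genes, the difference between second and first library in PC9 correlated with that in PC9R (Pearson r = 0.788 over 12660 genes, which are not independent), so the first and second libraries also differed from each other in a shared way. Nothing in the labels says that the libraries of a line were separate cultures, so a p-value here speaks only of library-to-library spread, which may be technical. All 8 epithelial markers had counts, with summed levels of 10386 to 24712 CPM (counts scaled to library size). Of 7 smooth muscle markers, 5 had a count in some library with MYH11 and MYOCD at 0 in all 4 libraries. Reads were counted per RefSeq accession, and the rule for reads shared by accessions was not given in the sources used here. For MYH11, MYOCD, DCN and TIE1, which have more than 1 accession, a 0 therefore cannot be read as no expression. The sum of the smooth muscle markers was 4.31 to 7.17 CPM in PC9 and 8.79 to 12.6 CPM in PC9R. Sums in PC9 and PC9R were 5.93 to 24 and 14.3 to 70.5 CPM for 7 fibroblast markers (DCN and PDGFRA at 0), 11.9 to 22 and 20.2 to 50.6 CPM for 5 endothelial markers (TIE1 at 0), and 8.12 to 8.58 and 13.8 to 19.0 CPM for 5 leukocyte markers (none at 0). All 4 of these sums were higher in PC9R within the first and within the second libraries. In the first PC9R library, 1 gene made up most of each sum: SYNM (7.78 CPM, smooth muscle), COL1A1 (69.4, fibroblast), CDH5 (38.7, endothelial) and CD68 (18.5, leukocyte). Other markers, among them PECAM1, LMOD1, SMTN and PDGFRB, were also higher in PC9R within the first and within the second libraries. PECAM1 had 165 and 54 counts in PC9, and 341 and 109 in PC9R. DES, LUM, PTPRC and CD3E were among those not higher in PC9R, but had at most 8 counts in a library. The sums therefore do not describe each marker. The part of these markers in the RNA differences was not tested.

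Promoter sequence is shown first for the genes on which the chromatin and RNA values below turn. The stretches are the bases before a RefSeq transcription start (promoter table of GRCh38.p14), placed on GRCh37 by exact match, and only the longest run with no base in an untranslated region of GENCODE 44 is printed. TPM2 and CNN3 had the lower RNA levels in PC9R. TPM4 and CNN2 held the only exact matches to the CArG box consensus found in the 14 windows of 8 members. Capitals mark a motif and lower case all other bases, 5′ to 3′ on the gene's strand.
TPM2, chr9:35690054-35690303, minus strand: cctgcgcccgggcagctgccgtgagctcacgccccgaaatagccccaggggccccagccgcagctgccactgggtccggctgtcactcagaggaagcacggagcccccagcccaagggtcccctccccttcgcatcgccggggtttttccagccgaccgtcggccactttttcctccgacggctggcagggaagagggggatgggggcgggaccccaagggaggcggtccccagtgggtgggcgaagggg
CNN3 upstream start, chr1:95392780-95392916, minus strand: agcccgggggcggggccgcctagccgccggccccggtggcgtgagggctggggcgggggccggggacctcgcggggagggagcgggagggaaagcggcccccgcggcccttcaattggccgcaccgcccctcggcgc
CNN3 downstream start, chr1:95391365-95391575, minus strand: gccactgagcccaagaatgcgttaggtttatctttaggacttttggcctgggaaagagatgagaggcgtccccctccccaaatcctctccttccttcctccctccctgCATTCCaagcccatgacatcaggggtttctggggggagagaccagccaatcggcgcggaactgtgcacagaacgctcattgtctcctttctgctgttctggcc
TPM4, chr19:16178117-16178343, plus strand: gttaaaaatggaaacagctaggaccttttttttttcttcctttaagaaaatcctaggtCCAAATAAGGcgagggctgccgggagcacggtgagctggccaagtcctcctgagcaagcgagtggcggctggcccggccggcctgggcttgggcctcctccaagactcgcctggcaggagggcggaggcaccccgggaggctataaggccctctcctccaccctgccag
CNN2, chr19:1026357-1026584, plus strand: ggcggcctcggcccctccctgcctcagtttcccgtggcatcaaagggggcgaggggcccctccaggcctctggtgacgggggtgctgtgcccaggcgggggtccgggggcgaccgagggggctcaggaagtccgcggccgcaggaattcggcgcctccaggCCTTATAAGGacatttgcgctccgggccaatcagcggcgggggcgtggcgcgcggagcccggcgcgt

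The capitals in TPM4 and CNN2 are CArG boxes, at 173 to 164 bases and 89 to 80 bases before the start. For TPM4 this is the most upstream RefSeq start, at 16178348. Its windows for the starts at 16187305 and 16187826 held no CArG box. The capitals in CNN3 are CATTCC, the core bound by TEAD factors, at 142 to 137 bases before its downstream start. Windows of 300 bases (250 before and 50 after the start) were searched on both strands for the CArG box, CATTCC, the AP-1 element TGANTCA and TATAAA. Only exact matches were counted, for the CArG box to CCWWWWWWGG, where W is A or T. CArG-like elements that depart from this pattern were not searched for, so a window without a match, as in ACTA2, may still hold one. Among all 35116 RefSeq windows, 1.29% held a CArG box, 14% CATTCC, 7.71% TGANTCA and 11.5% TATAAA. Over the 14 member windows, the CArG box was found in 2, CATTCC in 2 (CNN3 and, on the opposite strand, an ACTA2 window), and TGANTCA and TATAAA in 0. The TPM2 window held none of the 4 motifs. TAGLN and MYL9 were not in the table.

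TPM2, which encodes beta-tropomyosin and lies at chr9:35681989-35690053 on the minus strand, was the member with the lowest level in PC9R relative to PC9. Its levels, normalized by TMM, were 65.4 and 44.9 CPM in the first and second PC9 library, and 1.77 and 1.61 CPM in those of PC9R. The lines did not overlap, and the PC9R libraries were close to each other: the means were 55.2 ± 14.5 CPM (SD, n = 2) and 1.69 ± 0.114 CPM (SD, n = 2). The counts behind these values were 2087 and 673 in PC9, and 62 and 27 in PC9R. The log2 fold change of PC9R against PC9 was -5.03 (SE 0.68), a level 32.6-fold lower, with an adjusted p of 0.0388 by edgeR's quasi-likelihood test. Ranked by log2 fold change, TPM2 was number 27 from the lowest of the 12660 genes tested. Within the first libraries alone the log2 fold change was -5.15, and within the second alone it was -4.74. In bulk RNA, fewer cells expressing a gene and less RNA per cell cannot be told apart. The call was lost with upper quartile scaling (adjusted p = 0.0563) and with a stricter filter on low values (adjusted p = 0.305), while the log2 fold change kept its size.

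Both RefSeq accessions of TPM2 were lower in PC9R. NM_213674 had 1703 and 504 counts in PC9, and 43 and 13 in PC9R. NM_003289 had 384 and 169 counts in PC9, and 19 and 14 in PC9R. Tested over 13784 accessions with edgeR, the log2 fold change was -5.42 (SE 0.74, adjusted p = 0.0417) for NM_213674 and -4.09 (SE 0.72, adjusted p = 0.077) for NM_003289. NM_003289 made up 18.4% of the gene's counts in the first PC9 library (exact 95% binomial interval 16.8% to 20.1%) and 25.1% in the second (21.9% to 28.6%). In PC9R its share was 30.6% in the first library (19.6% to 43.7%) and 51.9% in the second (31.9% to 71.3%). The share was highest in the second PC9R library and lowest in the first PC9 library, but the interval of the first PC9R library overlapped that of the second PC9 library. These intervals cover counting error only, and the rule for reads shared by accessions was not given in the sources used here.

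**Figure D1:**
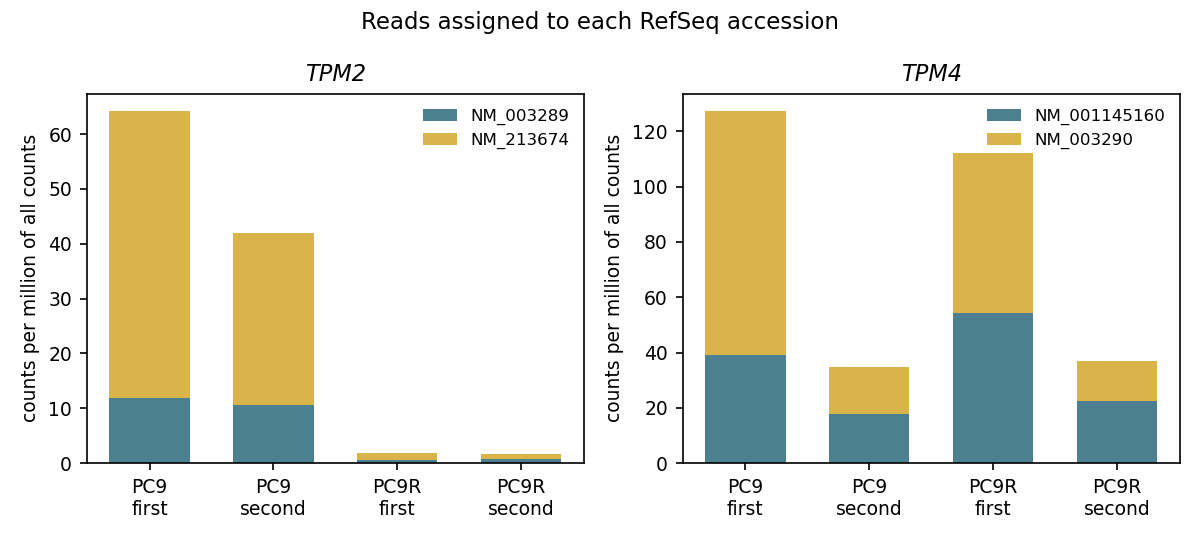
CPM of all counts (vertical axis, not normalized by TMM) assigned to each RefSeq accession of TPM2 and TPM4 in the 4 RNA libraries, stacked by accession. Both accessions of TPM2 are low in the PC9R libraries, whereas the bars of TPM4 differ more between first and second libraries than between lines.

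The other tropomyosins did not follow TPM2. TPM4, a tropomyosin of non-muscle cells at chr19:16177831-16213812, had 130 and 37.1 CPM in PC9, and 104 and 36.7 CPM in PC9R. The lines overlapped, and the log2 fold change was -0.25 (SE 0.77, adjusted p = 0.999, edgeR). Within a line, the second library differed from the first by -1.80 in PC9 and -1.5 in PC9R on the log2 scale. TPM1, encoding alpha-tropomyosin at chr15:63334819-63364114, had 24.1 and 5.54 CPM in PC9, and 22.3 and 7.01 CPM in PC9R. Its log2 fold change was -0.02 (SE 0.86, adjusted p = 1, edgeR), again with first libraries high and second libraries low in both lines. TPM3, at chr1:154127784-154167124, had 1.69 and 2.47 CPM in PC9, and 1.17 and 1.72 CPM in PC9R, which overlapped (log2 fold change -0.53, SE 0.68, adjusted p = 0.999, edgeR). Leaving out 1 library moved TPM1 between -1.08 and 1.39, and TPM4 between -1.18 and 0.91, so neither had a settled direction.

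The low values of TPM1 and TPM3 cannot be read as low expression. Genes with more than 1 accession held only 6.74% to 7.07% of all counts in a library although they made up 8198 of 23371 genes. TPM1 had 7 accessions, of which 2 had any count, and NM_001018008 held 88.0% to 99.7% of its counts. TPM3 had 11 accessions, of which 4 had any count. In TPM4 the accessions moved unequally: NM_003290 had 2863 and 274 counts in PC9, and 1876 and 241 in PC9R, while NM_001145160 had 1275 and 282 in PC9, and 1770 and 376 in PC9R. NM_001145160 held 30.8% (29.4% to 32.2%) and 50.7% (46.5% to 55%) of TPM4 counts in PC9, against 48.5% (46.9% to 50.2%) and 60.9% (57% to 64.8%) in PC9R. The share was higher in PC9R within the first and within the second libraries, but the first PC9R library did not exceed the second PC9 library. Neither TPM4 accession passed the test (log2 fold change -0.66, SE 0.89, and 0.31, SE 0.68, adjusted p = 1 for both, edgeR).

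**Figure D2:**
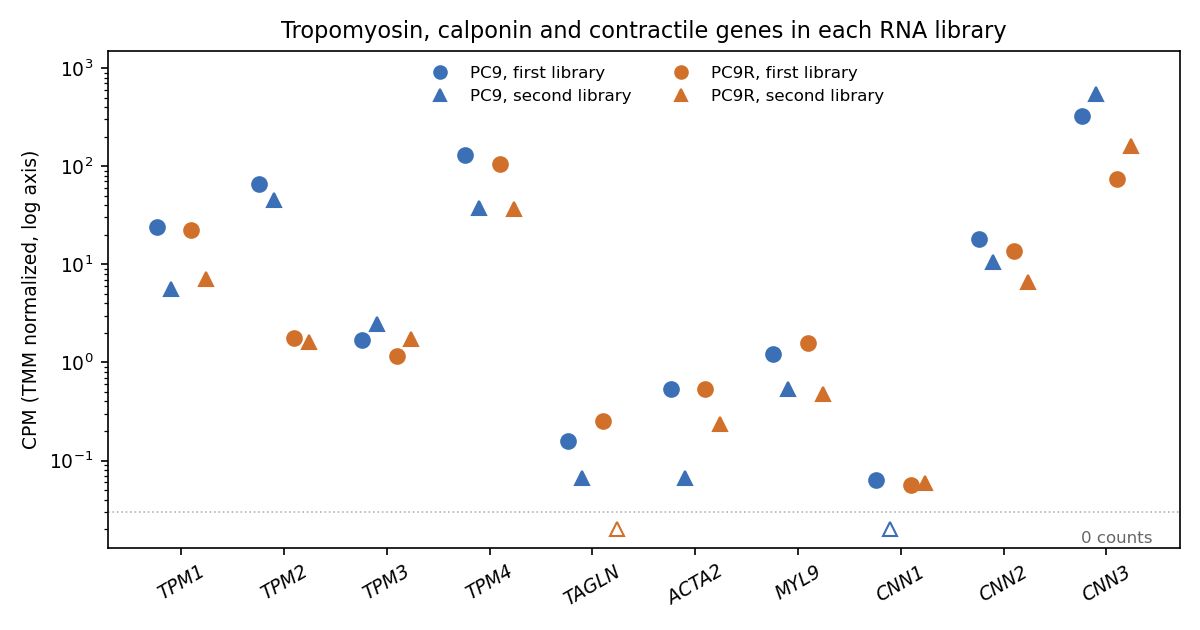
TMM-normalized CPM (vertical log axis) of the 10 genes in the 4 RNA libraries, with circles for first and triangles for second libraries, and open symbols under the dotted line for 0 counts. TPM2 and CNN3 are the genes whose PC9R libraries both lie below both PC9 libraries.

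CNN3, the widely expressed acidic calponin at chr1:95362505-95392779 (minus strand), was the other member whose lines did not overlap. Its levels were 324 and 539 CPM in PC9, and 74.2 and 161 CPM in PC9R, with means of 431 ± 152 CPM (SD, n = 2) and 118 ± 61.3 CPM (SD, n = 2). Both PC9R libraries lay below both PC9 libraries, and the second library was the higher one in each line. The log2 fold change was -1.88 (SE 0.61), a level 3.67-fold lower, and did not pass the test over all genes (adjusted p = 0.37, edgeR). It was -2.13 within the first libraries and -1.74 within the second. With library number as a term in the same edgeR model, CNN3 passed (log2 fold change -1.94, SE 0.20, adjusted p = 0.00063). That fit has 1 residual degree of freedom, so the estimate of spread comes mostly from the other genes.

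Of the other calponins, CNN2, at chr19:1026585-1039067, had 18.3 and 10.6 CPM in PC9, and 13.8 and 6.54 CPM in PC9R. CNN2 had 2 accessions, of which 1 held all counts, so its values are only of the reads counted. The lines overlapped and the gene did not pass the test (log2 fold change -0.50, SE 0.66, adjusted p = 0.999, edgeR), with -0.40 within the first and -0.69 within the second libraries. CNN1, the smooth muscle calponin at chr19:11649582-11661138, had 2 and 0 counts in PC9, and 2 and 1 in PC9R, too few for the test and for a fold. CNN1 and CNN3 each had a single accession, so their levels could be set against each other per length. CNN3 stood at 160 and 253 CPM (not TMM-normalized) per kilobase of transcript in PC9, and at 40.3 and 81.3 in PC9R, against at most 0.041 for CNN1 in any library. CNN3 was thus far above CNN1 in both lines.

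The smooth muscle genes of the group had few counts. TAGLN, an actin-binding marker of smooth muscle at chr11:117070086-117078180, had 5 and 1 counts in PC9, and 9 and 0 in PC9R, and was not tested. ACTA2, smooth muscle alpha-actin at chr10:90694831-90751096, had 17 and 1 counts in PC9, and 19 and 4 in PC9R. MYL9, at chr20:35169900-35179850, had 39 and 8 counts in PC9, and 56 and 8 in PC9R. The lines overlapped for both, and neither passed the test (ACTA2 log2 fold change 0.30, SE 1.00; MYL9 0.24, SE 0.84; adjusted p = 0.999 for both, edgeR). Each of these 3 genes had 2 accessions, of which 1 held all counts, so the values are only of the reads counted. Exons of TAGLN share bases with PCSK7 and those of ACTA2 with FAS, both on the opposite strand, and the strand setting of the counting was not given in the sources used here. Muscle genes of the lists with a single accession, named after their values were seen, also had few counts in most cases: the highest count in a library was 8 for the intermediate filament gene DES, 7 for the skeletal actin ACTA1 and 4 for the cardiac actin ACTC1. LMOD1, a leiomodin of smooth muscle, had more, with 54 and 8 counts in PC9, and 124 and 12 in PC9R, which overlapped (log2 fold change 0.92, SE 0.93, adjusted p = 0.999, edgeR).

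Of the 10 members, 8 passed the filter on low counts and 1 (TPM2) was lower in PC9R at an adjusted p under 0.05, with none higher. Over all genes tested, 0.0632% were called lower and 0.19% higher. With library number as a term, 2 members (TPM2 and CNN3) were called lower and 0 higher, where 9.57% of all genes were called lower and 11.2% higher. The libraries of the lines did not overlap for the same 2 members, both lower in PC9R, as for 14.9% of all genes, while 16.9% of genes did not overlap and were higher. The median log2 fold change was -0.38 over the 8 tested members and -0.01 over all genes. As TPM2 was known to be low when the list was made, nothing is read from these counts.

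**Figure D3:**
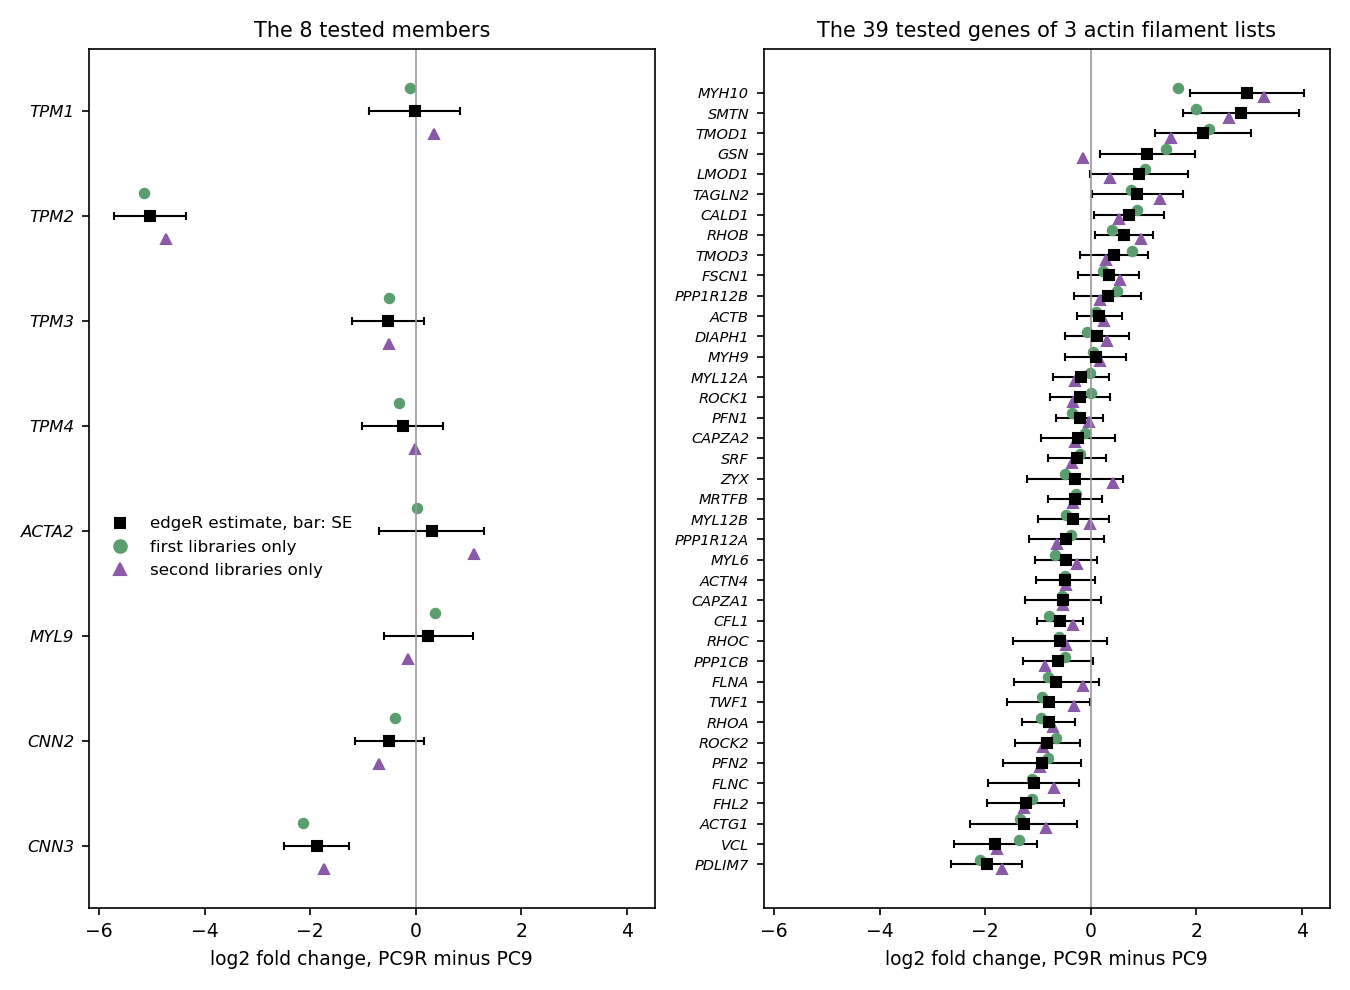
Log2 fold change of PC9R against PC9 (horizontal axis) for the 8 tested members and for the 39 tested genes of 3 actin filament lists, with squares for the edgeR estimate (bars, SE), circles for the first libraries and triangles for the second. TPM2 lies near -5 in both library pairs, and CNN3 near -2, apart from the other members.

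The remaining actin filament genes were taken from 3 lists of textbook membership, 58 genes in all, of which 39 were tested. None passed the edgeR test (0 higher, 0 lower, where 0.253% of all genes were called), and the median log2 fold change was -0.30. With library number as a term, 4 were higher and 5 lower, where 20.8% of all genes were called in either direction. Of the 39 genes, 25 had a log2 fold change below 0 (50.6% of all genes did), and the medians of the 3 lists were -0.30, -0.33 and -0.22, in the order below. Among the genes named below, PDLIM7, TAGLN2, SMTN, ACTG1, MYH10, TMOD1 and PFN2 have more than 1 accession. Their values are only of the reads counted, as for TPM1 and TPM3.

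In the list of the smooth muscle and SRF programme, 12 of 24 genes were tested. With the library number term, 2 were higher and 1 lower, where 11.2% of all genes were higher and 9.57% lower. PDLIM7, a PDZ and LIM domain protein of the actin cytoskeleton, had 14.7 and 7.81 CPM in PC9, and 3.36 and 2.38 CPM in PC9R, with no overlap (log2 fold change -1.94, adjusted p = 0.003 with the term and 0.418 without, edgeR). TAGLN2, a transgelin of non-muscle cells, had 59.1 and 12.6 CPM in PC9, and 101 and 31.6 CPM in PC9R, which overlapped (1.03, adjusted p = 0.0174 with the term and 0.999 without, edgeR). SMTN, which encodes smoothelin, had 4 and 0 counts in PC9, and 26 and 7 in PC9R (2.90, adjusted p = 0.0364 with the term and 0.556 without, edgeR). The 2 genes of the list with the highest mean level encode its regulators. SRF had 132 and 98.6 CPM in PC9, and 115 and 77.0 in PC9R, and its cofactor MRTFB had 160 and 183 in PC9, and 132 and 146 in PC9R (log2 fold changes -0.26, SE 0.55, and -0.30, SE 0.51). Neither passed in either fit. Both PC9R libraries of MRTFB lay below both PC9 libraries, as for 14.9% of all genes.

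In the list of non-muscle actomyosin, 15 of 16 genes were tested, and 1 was higher and 3 lower with the library number term (11.2% and 9.57% of all genes). RHOA, the GTPase that drives contraction through ROCK kinases, had 1310 and 1850 CPM in PC9, and 682 and 1130 CPM in PC9R, with no overlap (log2 fold change -0.82, adjusted p = 0.0137 with the term and 0.932 without, edgeR). ROCK2 had 225 and 507 CPM in PC9, and 142 and 272 in PC9R, which overlapped (-0.78, adjusted p = 0.0211 with the term and 0.999 without, edgeR). The cytoplasmic actin ACTG1 had 457 and 64.0 CPM in PC9, and 180 and 35.7 in PC9R (-1.10, adjusted p = 0.00911 with the term and 0.999 without, edgeR). MYH10, a non-muscle myosin heavy chain, had 4 and 0 counts in PC9, and 20 and 12 in PC9R (2.86, adjusted p = 0.0449 with the term and 0.485 without, edgeR). The most abundant genes of the list were ACTB, at 5900 and 4120 CPM in PC9, and 6270 and 4920 in PC9R, and MYH9, at 3410 and 1500 in PC9, and 3530 and 1680 in PC9R. Their lines overlapped, with log2 fold changes of 0.16 (SE 0.43) and 0.09 (SE 0.58). ACTB and MYH9 did not pass in either fit, whereas the actin ACTG1, whose lines also overlapped, was lower with the library number term only.

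In the list of filament end and crosslinking proteins, 12 of 18 genes were tested. With the library number term, 1 was higher and 1 lower (11.2% and 9.57% of all genes). TMOD1, a tropomodulin that caps the pointed end of tropomyosin-coated filaments, had 1.32 and 0.467 CPM in PC9, and 6.52 and 1.49 CPM in PC9R, with no overlap (log2 fold change 2.11, adjusted p = 0.00701 with the term and 0.669 without, edgeR). The profilin PFN2 had 18.2 and 51.2 CPM in PC9, and 10.3 and 26.2 in PC9R, which overlapped (-0.89, adjusted p = 0.0244 with the term and 0.999 without, edgeR). The filament-severing cofilin CFL1 had 3580 and 2690 CPM in PC9, and 2060 and 2140 in PC9R, and the profilin PFN1 had 2410 and 1930 in PC9, and 1880 and 1880 in PC9R. Neither passed in either fit (log2 fold changes -0.58, SE 0.43, and -0.21, SE 0.44). Both had PC9R libraries below the PC9 libraries, as did 14.9% of all genes.

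The genes whose pattern over the 4 libraries was nearest to that of TPM2 were NR2F1, PARM1, NEFH, PTPRG and NES. Nearness was the Euclidean distance of log2 CPM centred on each gene's mean, over 6774 genes with a mean of at least 10 CPM, and ranged from 0.74 for NR2F1 to 1.5 for NES. NR2F1, a nuclear receptor, had 66.3 and 37.6 CPM in PC9, and 0.883 and 1.49 CPM in PC9R. PARM1, which encodes a membrane mucin-like protein, had 42.0 and 105 CPM in PC9, and 2.19 and 2.14 in PC9R. The intermediate filament genes NEFH and NES had means of 331 ± 96.4 and 99.4 ± 45.8 CPM (SD, n = 2) in PC9, and 28.1 ± 5.34 and 7.95 ± 4.18 CPM (SD, n = 2) in PC9R. PTPRG, a receptor tyrosine phosphatase, had 39.8 ± 11.5 CPM (SD, n = 2) in PC9 and 2.80 ± 0.249 CPM (SD, n = 2) in PC9R. With 2 libraries a line, any gene strongly lower in PC9R has a similar pattern.

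Genes around TPM2 had mixed directions. Within 1 Mb of its start, 22 other genes were tested, with a median log2 fold change of 0.11 and 7 below 0 (50.6% of all genes were below 0). The 1 called by the edgeR test, UNC13B, went the other way (log2 fold change 5.80, adjusted p = 0.0362), where 0.253% of all genes were called. The nearest tested gene on each side, ARHGEF39 and TLN1, had log2 fold changes of 0.31 and -0.47, neither called. With the library number term, 5 of the 22 were higher (UNC13B, RECK, ATOSB, TMEM8B and HRCT1) and 1 lower, where 11.2% of all genes were called higher and 9.57% lower. That lower gene, CA9, which starts 16128 bp from TPM2, had mean levels of 56.0 CPM in PC9 and 10.2 CPM in PC9R (-2.42, adjusted p = 0.000454 with the library number term, and -2.46, adjusted p = 0.282 without, edgeR). These genes were picked out after their values were seen, as were those named around CNN3. Around CNN3, 7 other genes were tested within 1 Mb, 6 with a log2 fold change below 0, and the median was -0.43, with none called without the term. The shares over all genes given for TPM2 apply here too. ARHGAP29 and F3 were lower with the term (-1.21, adjusted p = 0.00307, and -0.97, adjusted p = 0.0114, edgeR) and ABCA4 higher (2.18, adjusted p = 0.000694, edgeR). Whether neighbours differ from the members beyond their error was not tested.

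With 1 library per line, the peak lists allow no test of a difference between lines. The PC9R lists were longer: 59600 DHS peaks against 19648 in PC9, and 117861 H3K4me2 peaks against 85246. H3K4me2 peaks were narrower in PC9R, with a median width of 395 bp against 546 bp, while DHS peaks had 211 bp against 205 bp. The score of each peak is the authors' own, with no stated scale, and was used only to rank peaks within a list (a percentile near 100 is a high score).

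At the start of TPM2, PC9 had a single broad H3K4me2 peak of 3680 bp at chr9:35687869-35691548, at the 94.3 percentile of scores in its list, which covered the start at 35690053. PC9R had 2 shorter peaks there, of 1173 bp at chr9:35690317-35691489 and of 278 bp at chr9:35689129-35689406, at the 89.5 and 42.1 percentiles, and neither covered a start. The gap between them held the whole sequence printed above: all 250 bases before the start lay in the PC9 peak and none in a PC9R peak. Neither line had a DHS peak within 1 kb of a TPM2 start. Within 50 kb of the TPM2 start there were 14 H3K4me2 peaks in each line, covering 19062 bp in PC9 and 8409 bp in PC9R, and 2 DHS peaks, both in PC9R. Counted within 2 kb of the start, H3K4me2 peaks covered 3496 bp in PC9 and 1451 bp in PC9R.

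CNN3 also had less H3K4me2 peak coverage at its start in PC9R. A peak of 3889 bp at chr1:95390191-95394079 in PC9 covered the start, and in PC9R there were peaks of 889 bp at chr1:95391104-95391992 and 584 bp at chr1:95392074-95392657, the latter 9 bp from an annotated start. The PC9 peak stood at the 89.2 percentile of its list, and the PC9R peaks at the 92.5 and 95.8 percentiles of theirs. Ranks in lists of different lengths show no change between the lines. All 250 bases before the gene start lay in the PC9 peak and none in PC9R, and the printed upstream sequence lies wholly within these bases. Coverage within 2 kb was 3918 bp in PC9 and 1473 bp in PC9R. At the downstream start, all of the printed sequence lay in H3K4me2 peaks of both lines, and a DHS peak of 174 bp at chr1:95391249-95391422, found in PC9R only and at the 48.2 percentile of its list, reached into 58 of its bases.

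Less coverage at starts was general in PC9R. Over 9884 tested genes with H3K4me2 within 2 kb of the start in both lines, the median was 2450 bp in PC9 and 1520 bp in PC9R, the median difference was -853 bp, and 95.3% of genes had fewer bases in PC9R. The differences of TPM2 (-2045 bp) and CNN3 (-2445 bp) stood at the 4.38 and 1.26 percentiles of these. Both genes started from broad PC9 coverage. Among 714 tested genes with at least the PC9 coverage of TPM2, the median difference was -1822 bp. Of these genes, 33.2% lost more than TPM2 and 13.6% lost more than CNN3. The group was set by TPM2 and includes genes with less PC9 coverage than CNN3, so it is not matched to CNN3. Of 4718 tested genes with all 250 bases before the start covered in PC9, 705 (14.9%) had none covered in PC9R, and 56 genes had the reverse. Counted from the gene start, TPM2 and CNN3 had all of these bases covered in PC9 and none in PC9R. Counted from RefSeq starts, TPM1 also went from 250 covered bases to 0, with RNA levels that overlapped between the lines. From the gene start, TPM1 and CNN1 went from 182 and 51 bases to 0, TPM4 from 125 to 30 and CNN2 from 250 to 180, while TAGLN, ACTA2 and MYL9 had 250 in both lines.

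**Figure D4:**
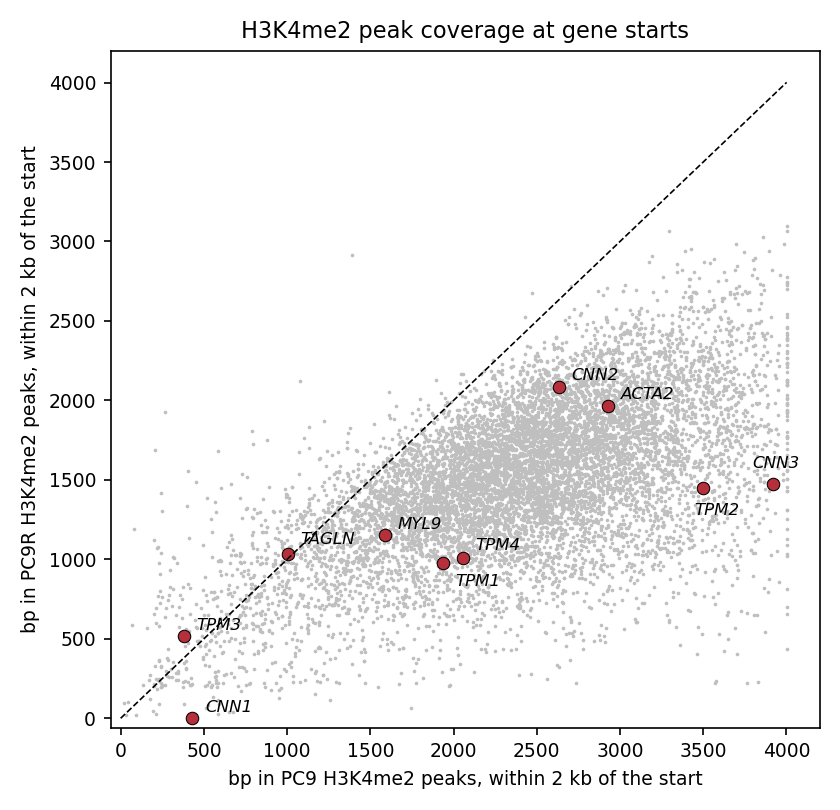
Bases covered by H3K4me2 peaks within 2 kb of the gene start in PC9 (horizontal axis) and PC9R (vertical axis), with the 10 members in red, the 9884 tested genes in grey, and a dashed line of equal coverage. TPM2 and CNN3 lie at the right with 3496 and 3918 bp in PC9 and 1451 and 1473 bp in PC9R.

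At starts of annotated coding transcripts, an H3K4me2 peak lay within 1 kb in both lines for 9 of the 10 members, as for 93.6% of tested coding genes. CNN1 had one in PC9 only (0.699% of tested genes), a peak of 221 bp at the 16.2 percentile of its list, and was nearly without RNA counts in both lines. No member had an H3K4me2 peak in PC9R only (1.19%) or in neither line (4.51%). A DHS peak lay within 1 kb of a start in both lines for TPM3 and ACTA2 (37.6% of tested genes), in PC9R only for MYL9 and CNN3 (18.7%), in PC9 only for none (10.5%) and in neither line for the other 6 (33.2%). The MYL9 peak ranked low in its list, at the 2.07 percentile, and that of ACTA2 in PC9 at the 2.44 percentile. MYL9 also had an H3K4me2 peak over its start in both lines. The peak was 1587 bp wide at the 88.5 percentile in PC9, and 1154 bp wide at the 99.5 percentile in PC9R. The RNA counts of MYL9, 39 and 8 in PC9, and 56 and 8 in PC9R, are only of the reads counted. The annotated start of the TPM3 gene lies away from the starts of its coding transcripts, and its 380 bp in PC9 and 515 bp in PC9R within 2 kb of the gene start do not describe its promoters.

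**Figure D5:**
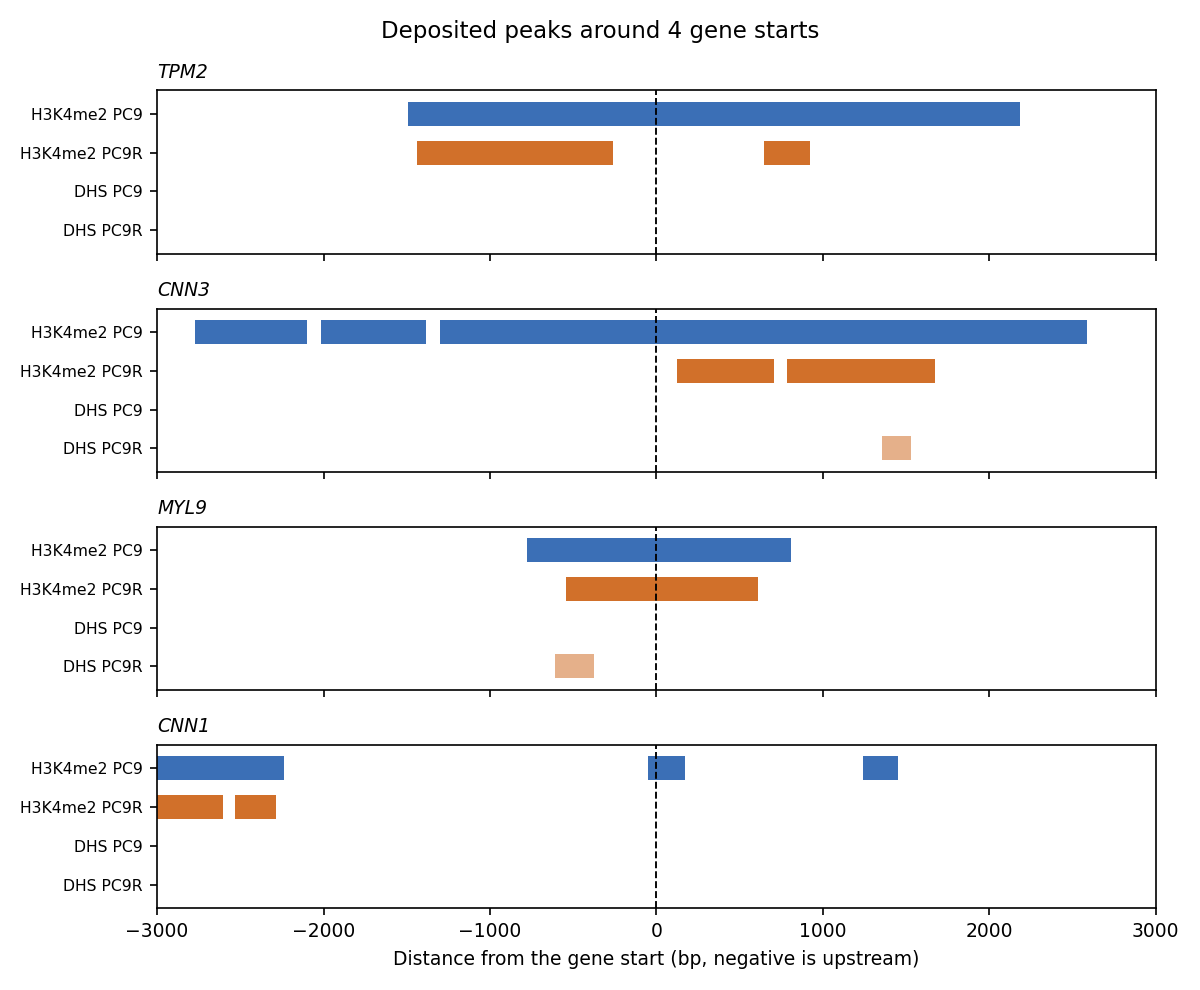
Deposited H3K4me2 and DHS peaks (bars, blue for PC9 and orange for PC9R, pale for DHS) around the gene starts of TPM2, CNN3, MYL9 and CNN1, by distance from the start in bp. The broad PC9 peak over the TPM2 start of 3680 bp is replaced in PC9R by bars of 1173 and 278 bp on either side of it.

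Within 50 kb of the 10 gene starts there were 13 DHS peaks in PC9 and 25 in PC9R, of which 30.8% and 16% overlapped a peak of the other line, against 43.2% and 14.3% over the whole lists. H3K4me2 peaks numbered 94 in PC9, covering 109737 bp, and 111 in PC9R, covering 69279 bp. Of these, 71.3% and 75.7% were shared, against 70.2% and 59.1% over the whole lists. TPM4 and CNN2 had DHS peaks in PC9 only, 2 and 5, whereas TPM1 and CNN3 had 1 each and TPM2 had 2 in PC9R only. MYL9 went from 1 to 6, CNN1 from 2 to 6 and TPM3 from 2 to 8. TAGLN had none in either line. Over all tested genes the median was 1 DHS peak in PC9 and 3 in PC9R, and 25% and 13% of genes had none.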

How the data were processed

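RNA-seq, DHS and H3K4me2 libraries of PC9 and PC9R were grouped by their titles. The deposited RNA tables give whole-number read counts for each RefSeq accession. Each deposited peak list comes from 1 library and gives the authors' score for every peak. The submitters' processing notes name MACS2, TopHat, HTSeq, DESeq and hg19. The roles, versions, annotation, peak threshold and control were not given in the sources used here. Counts of 42811 accessions were summed per gene through the RefSeq gene table (41552 matched, and the other 1259, with 0.70% to 0.84% of counts, were kept as rows of their own). The lines were compared by edgeR's two-sided quasi-likelihood test (edgeR 4.0.16, R 4.3.3, TMM, filterByExpr, Benjamini-Hochberg adjusted p under 0.05 over 12660 genes). The SE was taken as the log2 fold change over the square root of F. Intervals of shares are exact Clopper-Pearson intervals.

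Positions and starts came from GENCODE 44 lifted to GRCh37. A peak counted at a start if it overlapped the 1 kb on either side by at least 1 bp. The alternatives comprised upper quartile and RLE scaling, no filter, a stricter filter (1 CPM in all 4 libraries), DESeq2 1.42.0, voom in limma 3.58.1, library number as a term, leaving out each library, and for peaks other windows, the gene start only and peaks above the median score. Genes and lists were chosen with earlier results of these data known. Named genes were all members, per list up to 4 genes passing with the library number term and the 2 of highest mean CPM, and the 5 genes nearest to TPM2. Only the edgeR fits, with and without the library number term, were tested on simulated data.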

Additional observations from a re-analysis of the deposited data

How the results depend on the processing

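Over all genes, the 32 calls became 0 with upper quartile scaling (919 genes at an unadjusted p under 0.05) and 0 with the stricter filter (431 of 9358 genes), which by construction drops genes near 0 in 1 line. They became 440 with no filter, 381 with DESeq2, 73 with limma-voom and 2631 with library number as a replicate block, and 83 to 254 when each library was left out in turn. Among the members, the 1 call became 0 with upper quartile scaling, 0 with the stricter filter and 2 with the replicate block. The listed actin filament genes went from 0 calls (921 of all genes were at an unadjusted p under 0.05) to 9 with the replicate block, and stayed at 0 under the other alternatives. With 2 libraries a line the shared numbers do not show a pairing, although r = 0.788 between the lines. The log2 fold change of TPM2 stayed between -5.30 and -4.74 and its adjusted p between 1.13e-12 (DESeq2) and 0.305, while CNN3 stayed between -2.56 and -1.42 and passed only with the replicate block. Leaving out 1 library turned the sign of TPM1, TPM4, ACTA2 (-0.43 to 0.69) and MYL9 (-0.91 to 0.97), none of them called. Where a line kept 1 library, it was assumed to vary like the other. Members with a DHS peak at a start went from 2 in PC9 to 1 (500 bp), 4 (5 kb), 0 (above the median score) and 1 (gene start only), and from 4 in PC9R to 0 (above the median score) and 2 (gene start only). Among peaks above the median score, those within 50 kb fell from 13 to 5 and from 25 to 7 for DHS, and from 94 to 61 and from 111 to 71 for H3K4me2, in PC9 and PC9R. The causes were not tested. TAGLN and CNN1 had at most 9 counts in a library and were not tested, and low counts limit the precision for ACTA2 and MYL9.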

Other observations

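Moesin, the product of MSN, links actin filaments to the plasma membrane together with its relatives ezrin (EZR) and radixin (RDX). These 3 genes are in none of the lists and were picked out after their values were seen. MSN, with a single accession, had 150 and 196 CPM in PC9, and 2020 and 2260 CPM in PC9R, with no overlap of the lines (log2 fold change 3.63, SE 0.51, adjusted p = 0.0411, edgeR's quasi-likelihood test). The log2 fold change was 3.75 within the first libraries and 3.53 within the second. EZR, with 2 accessions, had 26.9 and 23.2 CPM in PC9, and 24.7 and 18.5 CPM in PC9R, which overlapped (-0.21, SE 0.57, adjusted p = 0.999, edgeR). RDX, with 6 accessions, had 5 and 3 counts in PC9, and 1 and 0 in PC9R, and was not tested. Whether the response of MSN differs from that of EZR was not tested.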
